A study of Mus musculus with 64 samples.

Results

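Sgk1, Sgk2 and Sgk3 encode the 3 serum- and glucocorticoid-regulated kinases, and their transcripts were followed in 2 brain regions of mice given a single dose of a psychotropic drug. The members were all transcripts listed under these gene names in the deposited transcript tables, 28 of 112714 transcripts and 3 of 46785 genes: 13 of Sgk1, 3 of Sgk2 and 12 of Sgk3. Sgk1 and its alternative transcripts were chosen because the values of Sgk1 after the drugs stood out in these same libraries. The genes were thus chosen by their FPKM after the drugs against saline, and for Sgk1 these values are given as a description with no test.

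The animals were adult male C57BL/6N mice, and the tissues were the nucleus accumbens (NAc), a ventral striatal region, and the prefrontal cortex (PFCx). Each mouse received an intraperitoneal injection of haloperidol at 1 mg/kg, risperidone at 0.5 mg/kg, mianserin at 20 mg/kg, venlafaxine at 16 mg/kg, methamphetamine at 2 mg/kg, ketamine at 20 mg/kg or saline, and tissue was taken 2 h later. Haloperidol and risperidone are antipsychotics, mianserin and venlafaxine are antidepressants, methamphetamine is a psychostimulant and ketamine is an anaesthetic that blocks NMDA receptors. There were 4 libraries of ribosome-depleted total RNA for each drug in each tissue and 8 for saline, which the labels divide into saline set I and saline set II of 4 libraries each. Haloperidol and risperidone were dissolved with a drop of hydrochloric acid added. The methods do not say whether any saline injection held it, and the acid's part in those values was not tested.

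The SGK kinases belong to the AGC family of serine/threonine kinases, next to AKT and the S6 kinases. They are switched on downstream of phosphoinositide 3-kinase, through phosphorylation by mTOR complex 2 and PDK1, and they phosphorylate the ubiquitin ligase NEDD4L, FOXO transcription factors and NDRG1. SGK1 is controlled to an unusual degree through its transcription, which glucocorticoids switch on quickly, and through its short-lived protein: alternative first exons give proteins with different N-termini, and the N-terminus carries a signal for rapid degradation. SGK3 differs from the other members by a lipid-binding PX domain that directs it to endosomes, and SGK2 is best known from liver and kidney.

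The libraries held 1.52 to 3.26 aligned gigabases each, with a median of 2.39. The NAc libraries fell into 2 groups by how many transcripts they listed above 0: 85287 to 87827 in the 4 saline set I libraries and the 12 given methamphetamine, risperidone or haloperidol, and 107099 to 110556 in the 4 saline set II libraries and the 12 given ketamine, venlafaxine or mianserin. The 32 PFCx libraries all listed 108556 to 110852. These groups of treatments are called sample set I and sample set II below, a division read from those totals and not from the labels of the drugs, and drug values are given against all 8 saline libraries, with the main ones also against the 4 of their own sample set. Transcript abundance was given in FPKM, fragments scaled to transcript length and to the number mapped, and differences were computed on log2(FPKM + 1). Nothing in the labels says that the libraries of a group came from separate mice, so p-values measure the spread between libraries. Markers of striatal projection neurons were higher in the NAc for 6 of 6 genes, with summed levels after saline of 279.7 to 398.0 FPKM against 15.3 to 52.6 FPKM in the PFCx, and markers of cortical projection neurons were higher in the PFCx for 5 of 5.

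The 13 Sgk1 transcripts differ mainly in where they start. All lie on the plus strand of chromosome 10 between positions 21882184 and 21999903 of the GRCm38 build, and none shares exon bases with another gene. Sgk1-201 (ENSMUST00000020145, chr10:21994666-21999903) is the shortest of the 5 full-length protein-coding transcripts, with 12 exons, 2456 bases and a coding length of 1293 bases. Sgk1-204 (ENSMUST00000120509, chr10:21882184-21999893) starts 112482 bases upstream of it, has 14 exons, 3096 bases and a coding length of 1572 bases, and shares 2286 bases with Sgk1-201. The 3 other full-length forms, Sgk1-213, Sgk1-203 and Sgk1-202, start 15994, 2443 and 776 bases upstream of Sgk1-201. In what follows, Sgk1-204 and the short Sgk1-211 are called distal, the 5 that start at the Sgk1-201 start or downstream of it are called proximal, and the 6 others are called middle.

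The sequences before 3 of the starts are shown: those of Sgk1-201 and Sgk1-204, on which the results turn, and that of Sgk1-202, whose window held a match to the glucocorticoid response element. Each is the 250 bases upstream of the start on the plus strand of GRCm38, taken from RefSeq, with motifs in capitals.
Sgk1-204, chr10:21881934-21882183: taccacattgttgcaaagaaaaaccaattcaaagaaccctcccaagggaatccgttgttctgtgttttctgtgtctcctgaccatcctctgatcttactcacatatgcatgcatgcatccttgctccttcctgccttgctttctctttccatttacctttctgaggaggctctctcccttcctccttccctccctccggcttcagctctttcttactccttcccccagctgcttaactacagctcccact
Sgk1-202, chr10:21993640-21993889: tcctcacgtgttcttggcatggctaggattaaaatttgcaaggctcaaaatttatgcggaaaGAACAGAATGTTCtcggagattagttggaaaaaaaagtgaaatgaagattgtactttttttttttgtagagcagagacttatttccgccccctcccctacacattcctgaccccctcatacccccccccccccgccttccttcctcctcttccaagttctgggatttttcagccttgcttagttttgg
Sgk1-201, chr10:21994416-21994665: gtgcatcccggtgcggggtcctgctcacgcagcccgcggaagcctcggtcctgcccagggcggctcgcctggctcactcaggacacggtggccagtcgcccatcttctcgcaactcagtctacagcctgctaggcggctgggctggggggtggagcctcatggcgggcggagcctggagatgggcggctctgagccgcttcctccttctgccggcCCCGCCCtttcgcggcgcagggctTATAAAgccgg
In all, 5 motifs were searched on both strands in windows of 300 bases, from 250 before to 50 after each start: the TATA box TATAAA, the glucocorticoid response element (GNACA and TGTNC with any 3 bases between), the cyclic AMP response element TGACGTCA, the AP-1 site TGAGTCA and the GC box CCCGCCC. The window of Sgk1-201 held TATAAA with its first base at position -11 and CCCGCCC at position -35, and its GC content was 69.7% against a median of 52.7% over all 32851 promoters. The window of Sgk1-202, which lies within the intron that Sgk1-204 spans, held GAACAGAATGTTC at position -188, a match to the glucocorticoid response element that was found in 0.475% of all promoters. The window at the shared start of Sgk1-203 and Sgk1-212, not printed here, held TATAAA at position -28. TATAAA was found in 13.6% and CCCGCCC in 25.6% of all promoters, and the window of Sgk1-204 held none of the 5 motifs. A match is a description of the letters only, and binding was not measured here.

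**Figure D1:**
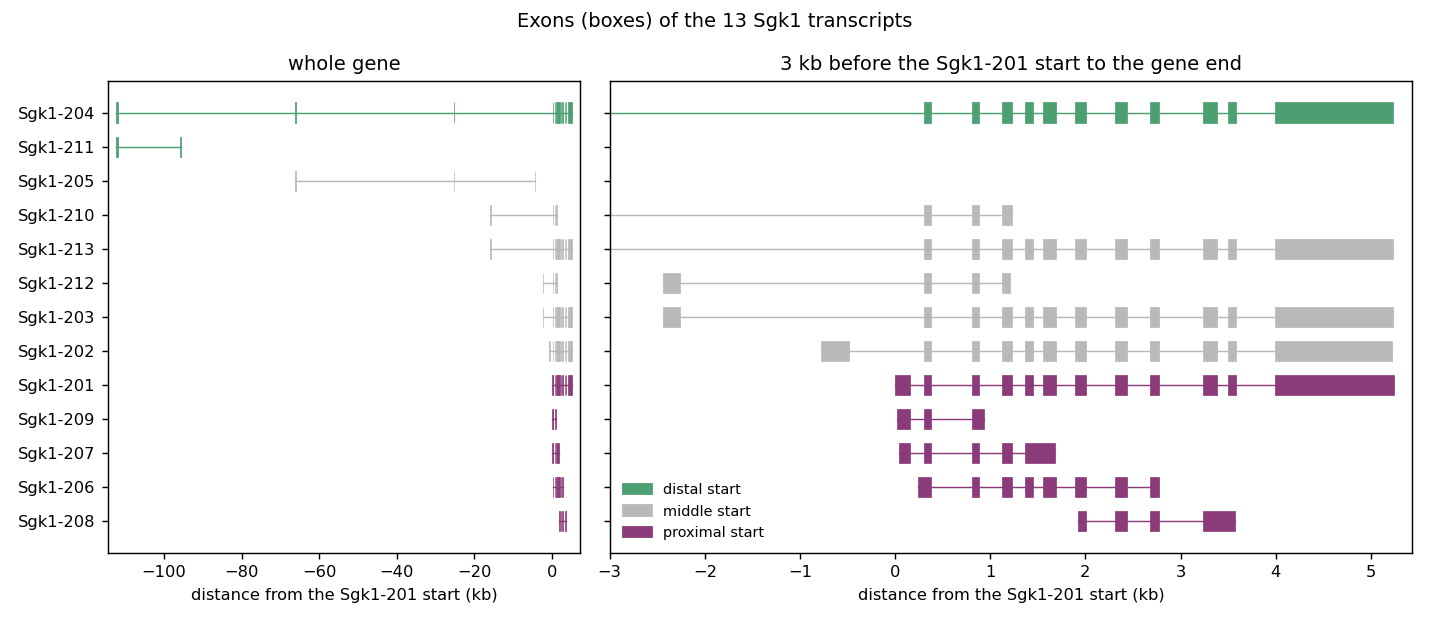
Exons (boxes) and introns (lines) of the 13 Sgk1 transcripts, with the distance from the Sgk1-201 start in kb on the horizontal axis, for the whole gene (left) and from 3 kb before that start (right). Sgk1-204 starts 112482 bases upstream and joins the same exons from the second exon of Sgk1-201 onwards, so the first exons tell the full-length transcripts apart.

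Because most exons are common, few bases assign a read to 1 transcript. Only 22 bases of Sgk1-201 and 313 of Sgk1-204 are in no other Sgk1 transcript. Sgk1-201 has 165 bases that no distal or middle transcript contains, and Sgk1-204 has 652 that no middle or proximal transcript contains. Most of the first exon of Sgk1-201 is also part of the proximal Sgk1-209 and Sgk1-207. The division of reads between Sgk1-201 and these short transcripts therefore rests largely on Cufflinks. Sgk1-213, Sgk1-203, Sgk1-210 and Sgk1-212 have no base of their own, so their values rest on the way Cufflinks divided shared reads. The confidence bounds in the files spanned a median of 29.9% of the value to each side for Sgk1-201 in the NAc after saline and 9.13% after mianserin, and 14.1% and 15.4% for Sgk1-204.

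In the NAc, Sgk1-201 alone of the Sgk1 transcripts was higher than in all 8 saline libraries after each of the 6 drugs. After saline its level was 0.929, 1.73 and 2.96 FPKM (lowest, median and highest of 8 libraries). After mianserin the 4 NAc libraries held 16.3, 22.1, 14.2 and 20.2 FPKM, a ratio of means of 10.2 to all saline and 7.95 to saline set II. After risperidone they held 8.63, 13.9, 13.8 and 11.5 FPKM, which was 6.75 times the saline mean and 9.48 times that of saline set I. In FPKM the mianserin libraries were all above the risperidone libraries, and both groups were far above saline. Against the own saline sets the ratio was larger for risperidone (9.48) than for mianserin (7.95), so the order depended on the control. This order was not tested. After ketamine the values were 11.6, 9.92, 8.41 and 10.4 FPKM, or 5.68 times the saline mean and 4.41 times that of saline set II. After haloperidol they were 8.52, 10.9, 12.2 and 6.82 FPKM, or 5.41 times the saline mean and 7.603 times that of saline set I. The ranges of risperidone, ketamine and haloperidol overlapped each other, so their order was not resolved by these libraries. After methamphetamine the values were 6.25, 6.91, 8.52 and 3.46 FPKM, 3.54 times the saline mean and 4.97 times that of saline set I. After venlafaxine they were 3.23, 3.45, 3.45 and 5.27 FPKM, 2.17 times the saline mean and 1.68 times that of saline set II. Methamphetamine overlapped with both haloperidol and venlafaxine, and venlafaxine was the closest to saline. The share of all transcripts tested whose 4 drug libraries lay above all 8 saline libraries in the NAc was 0.858% for mianserin, 0.444% for risperidone, 0.879% for ketamine, 0.425% for haloperidol, 0.292% for methamphetamine and 0.547% for venlafaxine.

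In the PFCx the level of Sgk1-201 after saline was higher and more variable, at 0.504, 3.21 and 5.98 FPKM, and mianserin was the drug whose libraries were all above it. The 4 mianserin libraries held 10.3, 11.96, 12.8 and 11.3 FPKM, a ratio of 3.96 to all saline and 2.78 to saline set II. Risperidone gave 4.40, 6.42, 5.74 and 6.33 FPKM, haloperidol 5.27, 3.35, 4.05 and 4.73 FPKM, and ketamine 5.34, 6.70, 5.05 and 3.37 FPKM. These 3 groups overlapped with the 8 saline libraries, at 1.96, 1.49 and 1.75 times their mean. Against saline set I alone, risperidone (3.39 times) and haloperidol (2.58 times) did not overlap with saline, whereas ketamine was at 1.23 times the mean of its own set II. Methamphetamine was at 1.17 times all saline and 2.02 times set I. Venlafaxine was at 1.29 times all saline and 0.907 times saline set II. In the PFCx the share of transcripts with all 4 drug libraries above saline was 0.444% for mianserin, 0.559% for risperidone, 0.425% for haloperidol, 0.221% for ketamine, 0.361% for methamphetamine and 0.228% for venlafaxine.

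Sgk1-204, the transcript from the distal start, overlapped with saline after every drug in both tissues. In the NAc its saline level was 4.00, 5.12 and 6.11 FPKM, and the drug means ran from 4.41 ± 0.74 FPKM (SD, n = 4) after methamphetamine to 5.71 ± 0.83 after mianserin. The 4 NAc mianserin libraries, in which Sgk1-201 was highest, held 5.43, 4.73, 6.68 and 6.01 FPKM of Sgk1-204. In the PFCx its saline level was 1.46, 1.93 and 2.72 FPKM, and the drug means ran from 1.38 ± 0.24 after risperidone to 2.26 ± 0.46 after mianserin. Ratios to saline were 0.867 to 1.12 in the NAc and 0.705 to 1.15 in the PFCx. The risperidone libraries of the PFCx, at 1.60, 1.09, 1.28 and 1.56 FPKM, overlapped with the 8 saline libraries but were all below the 4 of saline set I, at 0.643 times their mean.

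**Figure D2:**
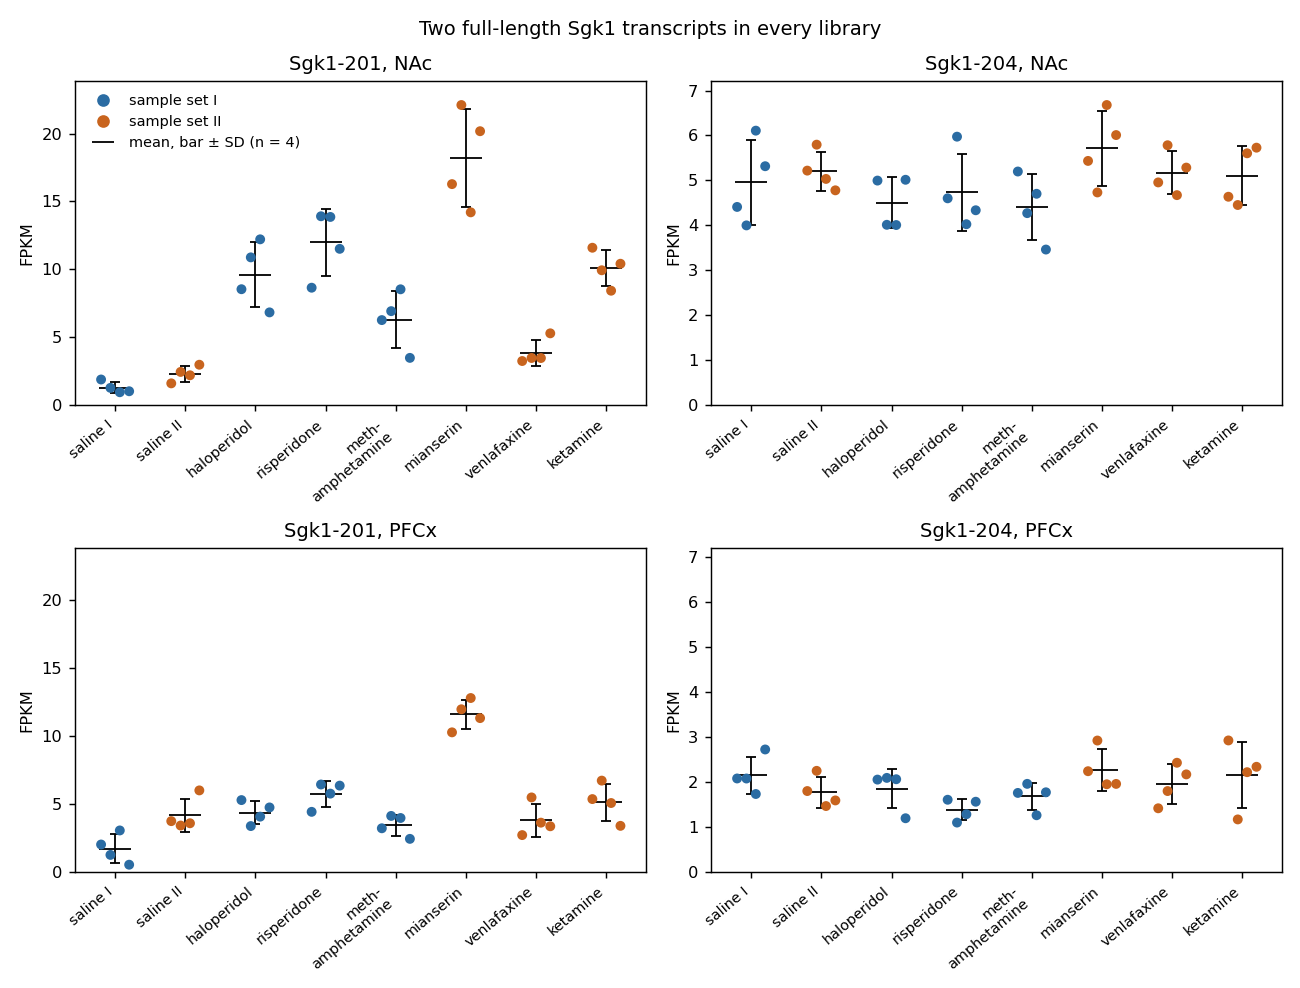
FPKM of Sgk1-201 and Sgk1-204 (columns) in each library of the NAc and the PFCx (rows), by treatment. Points are libraries coloured by sample set, and horizontal marks with bars are the mean and SD of 4 libraries. Sgk1-201 in the NAc reaches 14.2 to 22.1 FPKM after mianserin against at most 2.96 after saline, whereas the Sgk1-204 drug groups overlap with saline in every panel.

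The make-up of the full-length Sgk1 transcripts therefore differed between treatments. In the NAc after saline, Sgk1-204 made up 60.1 ± 5.9% (SD, n = 8) of the summed FPKM of the 5 full-length transcripts and Sgk1-201 21.0 ± 8.1%. After mianserin these shares were 22.9 ± 5.0% and 71.3 ± 7.4% (n = 4). Sgk1-201 held the larger share after 5 of the drugs, with 62.4% after risperidone, 60.8% after haloperidol, 58.9% after ketamine and 50.3% after methamphetamine, while after venlafaxine Sgk1-204 still held 49.3% against 36.2%. In the PFCx Sgk1-201 held 46.9 ± 21% after saline, 75.2 ± 4.6% after mianserin and 71.5 ± 7.1% after risperidone. The remaining full-length forms were low: the highest treatment mean was 0.841 FPKM for Sgk1-213, 0.870 for Sgk1-202 and 0.810 for Sgk1-203, each with a spread between libraries close to the mean in several groups.

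The sum over all Sgk1 transcripts was higher than in every saline library after haloperidol, risperidone, mianserin and ketamine, in both tissues. In the NAc the saline sum was 16.1, 18.4 and 21.6 FPKM (lowest, median and highest). The 4 NAc libraries held 65.2, 70.7, 54.9 and 60.8 FPKM after mianserin, 36.6, 53.7, 43.9 and 34.6 after risperidone, 39.7, 38.9, 37.8 and 36.8 after ketamine, and 36.6, 36.9, 37.6 and 24.5 after haloperidol. Ratios to saline were 3.31, 2.22, 2.02 and 1.79, and against the own saline set 3.21, 2.30, 1.95 and 1.85. The sum after venlafaxine (24.0 ± 2.0 FPKM, 1.26 times saline) and after methamphetamine (22.6 ± 3.5 FPKM, 1.19 times) overlapped with saline, although Sgk1-201 itself did not. The share of all genes tested with 4 NAc libraries above all saline was 1.18% for mianserin, 0.626% for risperidone, 1.38% for ketamine, 0.718% for haloperidol, 0.807% for venlafaxine and 0.381% for methamphetamine.

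In the PFCx the saline sum was 9.69, 13.5 and 15.6 FPKM, and the mianserin libraries held 28.6, 37.1, 32.5 and 35.0 FPKM, 2.49 times saline. Ketamine gave 19.9, 18.2, 21.0 and 18.3 FPKM, haloperidol 16.1, 20.1, 17.6 and 18.9 FPKM, and risperidone 15.7, 17.7, 17.8 and 20.8 FPKM. These 3 drugs lay at 1.45, 1.36 and 1.35 times saline, close above its highest library. Here the share of all genes above saline in every library was 0.57% for mianserin, 0.2% for ketamine, 0.562% for haloperidol, 0.794% for risperidone, 0.159% for venlafaxine and 0.505% for methamphetamine. Venlafaxine and methamphetamine, at 1.07 and 1.09 times saline, overlapped with it.

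**Figure D3:**
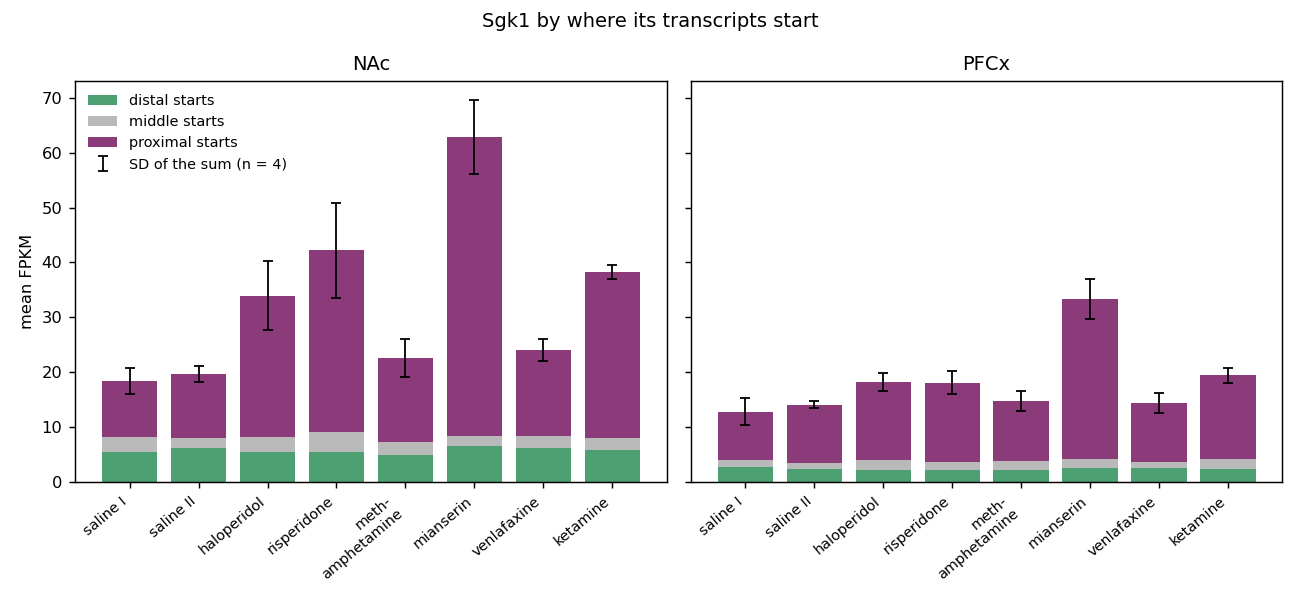
Mean FPKM of Sgk1 in the NAc and the PFCx, stacked by whether transcripts start at the distal, middle or proximal part of the gene, with the SD of the sum over 4 libraries as the bar. In the NAc the proximal transcripts go from a mean of 10.9 FPKM after saline to 54.6 after mianserin, and the distal part has much the same height in every column.

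Short proximal transcripts accompanied Sgk1-201. Sgk1-209, which reaches into the third intron of Sgk1-201 and is annotated as an intron-retaining transcript, held 2.72, 3.96 and 6.85 FPKM in the NAc after saline. It held 19.6, 26.2, 17.1 and 14.9 FPKM after mianserin and 15.6, 14.3, 12.02 and 11.8 FPKM after ketamine, 4.67 and 3.22 times saline with no overlap. After risperidone its 4 values were 5.49, 16.4, 8.83 and 7.01 FPKM, where replicate 2 was far above the others and the group overlapped with saline. In the PFCx its mean was 10.2 ± 1.6 FPKM after mianserin against 3.64 ± 0.98 after saline, again without overlap. Sgk1-208, which keeps the tenth intron, was at 7.33 ± 3.2 FPKM in the NAc after mianserin against 1.96 ± 0.82 after saline, and Sgk1-207, which keeps the fifth, was at 3.73 ± 0.79 against 1.02 ± 0.63. Sgk1-207 was also above saline in all 4 risperidone libraries of the NAc (3.03 ± 0.91 FPKM) and in all 4 haloperidol libraries of the PFCx (2.54 ± 1.4 FPKM against 0.588 ± 0.40).

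Of the 11 Sgk1 transcripts that passed the filter on low values, the number above every saline library in the NAc was 4 for mianserin, 2 for risperidone, 2 for ketamine and 1 for each of the other drugs. In the PFCx it was 2 for mianserin, 1 for haloperidol and 0 for the other drugs. The share of all transcripts tested that did so in each comparison is given above with the Sgk1-201 values. The Sgk1 transcripts share exons, so these counts are not independent. The intron-retaining transcripts together made up 37.9 ± 6.8% of the Sgk1 sum in the NAc after saline and 48.5 ± 1.5% after mianserin, and their summed level was 7.14 FPKM and 30.5 FPKM. After methamphetamine, where Sgk1-201 was also above saline, they made up 27.3 ± 2.0%, and Sgk1-209 was at 0.725 times its saline mean. These are shares of FPKM, which is scaled to length, and not shares of reads. Sgk1-209, Sgk1-208 and Sgk1-207 have 347, 644 and 688 bases, against 2456 for Sgk1-201. Over all libraries Sgk1-209 had a median of 3524 aligned bases, against 75570 for the Sgk1 sum. Over the 64 libraries, with each tissue and sample set centred on its mean, the correlation with Sgk1-201 was 0.673 for Sgk1-209, 0.549 for Sgk1-206, 0.485 for Sgk1-207, 0.470 for Sgk1-208 and -0.117 for Sgk1-204. These values are a description, since the transcripts share exons and libraries. The 4 short transcripts of the middle and distal starts, Sgk1-205, Sgk1-210, Sgk1-211 and Sgk1-212, had treatment means of at most 1.39 FPKM.

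After saline, without any drug, the tissues differed in how the Sgk1 FPKM was divided between the distal and the proximal transcripts. The Sgk1 sum was higher in the NAc (19.0 ± 1.9 FPKM, n = 8) than in the PFCx (13.4 ± 1.8 FPKM), a log2 difference of 0.48 (SE 0.078, limma adjusted p = 0.000189). Sgk1-204 was higher in the NAc by 1.04 (SE 0.091, limma adjusted p = 8.1e-07), with 5.08 ± 0.69 against 1.96 ± 0.41 FPKM and no overlap between the 8 libraries of each tissue, as for 1.64% of all transcripts. Sgk1-213 was higher by 0.53 (limma adjusted p = 0.00918). Sgk1-201 leaned the other way, at 1.77 ± 0.72 FPKM in the NAc against 2.92 ± 1.7 in the PFCx, which did not pass the test (-0.41, SE 0.19, limma adjusted p = 0.148). The other 8 Sgk1 transcripts tested did not pass either, the closest being Sgk1-208 (0.66, limma adjusted p = 0.0545). The comparison of tissues called 39.9% of all genes, with 8.41% higher and 31.5% lower in the NAc, and 17% of all transcripts, so a call in it is common. With read coverage per gigabase in place of FPKM, 19.5% of genes were called higher and 18.2% lower in the NAc. The saline libraries used here are also the controls of the drugs.

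As a share of the 5 full-length transcripts, Sgk1-204 stood at 60.1% in the NAc against 34.9% in the PFCx, a difference of 25.1 percentage points (two-sided exact permutation test, p = 0.000466, adjusted over 7 shares 0.00163). Sgk1-201 made up 21.0% and 46.9% (exact permutation p = 0.00637, adjusted 0.0111). Of the whole Sgk1 sum, distal transcripts held 30.6% in the NAc against 18.8% in the PFCx (exact permutation p = 0.000311, adjusted 0.00163). Proximal ones held 57.2% against 72.3% (exact permutation p = 0.00171, adjusted 0.00399). The proximal group includes Sgk1-206 and Sgk1-208, which share 803 and 538 bases with Sgk1-204. Its share of the sum therefore does not show which start was used. Within saline set II the Sgk1-204 share was 59.3% against 26.1% and the Sgk1-201 share 26.0% against 59.95%, both without overlap (exact permutation p = 0.0286, the smallest that 4 against 4 libraries allow). Within saline set I the shares were 60.8% against 43.8% (exact permutation p = 0.0571) and 16.1% against 33.9% (exact permutation p = 0.2). Oligodendrocyte markers moved with this comparison: 7 of 7 were higher in the NAc, with summed levels of 583 to 799 FPKM against 148 to 206 FPKM, none of them at 0. Their part in the Sgk1 difference was not tested, and in bulk tissue more cells of a type and more RNA per cell cannot be told apart.

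Sgk3 was present in every library at a lower FPKM than Sgk1, and Sgk2 had few reads. The Sgk3 sum after saline was 6.63, 7.68 and 10.2 FPKM in the NAc and 3.99, 5.19 and 6.05 FPKM in the PFCx, with no overlap, as for 2.83% of all genes, and a log2 difference of 0.55 (SE 0.060, limma adjusted p = 2.53e-06). The Sgk2 sum after saline was 0.138, 0.519 and 0.648 FPKM in the NAc and 0.122, 0.249 and 0.488 FPKM in the PFCx, which overlapped and did not pass the test (0.18, SE 0.079, limma adjusted p = 0.0836). With read coverage per gigabase in place of FPKM, the Sgk3 difference was 1.03 (limma adjusted p = 4.41e-10) and the Sgk2 difference was 0.29 and passed (limma adjusted p = 0.00142). Its transcript Sgk2-201 was higher in the NAc, at 0.297 ± 0.15 against 0.0949 ± 0.074 FPKM (0.24, limma adjusted p = 0.0242). The Sgk2 sum rested on 172.7 to 3552 aligned bases in a library with a median of 747.9, against a median of 29760 for Sgk3 and 75570 for Sgk1.

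Most of the Sgk3 signal came from transcripts that the annotation does not list as coding for the kinase. Intron-retaining transcripts made up 56.7% of the saline Sgk3 sum in the NAc against 55.8% in the PFCx (exact permutation p = 0.805, adjusted 0.805), and protein-coding ones 17.2% and 22.2% (exact permutation p = 0.116, adjusted 0.163). The 3 Sgk3 transcripts called between the tissues, of 12 tested, were all higher in the NAc and were none of the protein-coding forms. They were Sgk3-205, annotated as a target of nonsense-mediated decay (0.59, limma adjusted p = 0.000319), and the intron-retaining Sgk3-212 (0.28, limma adjusted p = 0.0214) and Sgk3-206 (0.21, limma adjusted p = 0.0142). The protein-coding Sgk3 transcripts share nearly all of their bases, and Sgk3-204 was above 0.01 FPKM in 2 of the 8 NAc saline libraries. The tissue calls of Sgk1-213, Sgk2-201, Sgk3-206 and Sgk3-212 were lost within saline set I, and those of Sgk2-201 and Sgk3-212 also within saline set II. With coverage the differences of Sgk3-212 and Sgk3-206 were 0.47 and 0.40.

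After the drugs neither the Sgk3 sum nor the Sgk2 sum passed the limma test in any of the 12 comparisons with saline, while 3 and 1 of them had an unadjusted p under 0.05. In the NAc the share of all genes called was 1.84% for mianserin, 0.729% for risperidone, 0.721% for haloperidol, 1.97% for ketamine, 0.194% for methamphetamine and 1.83% for venlafaxine. In the PFCx it was 0.667%, 0.51%, 0.162%, 0.0162%, 0.351% and 0.0054% in the same order. The Sgk3 log2 differences ran from -0.36 after risperidone to 0.20 after venlafaxine in the NAc, and from -0.33 after mianserin to -0.09 after risperidone in the PFCx. With only the 4 saline libraries of a drug's own sample set as controls, the Sgk3 differences ran from -0.23 after mianserin to 0.04 after venlafaxine in the NAc, and from -0.42 after mianserin to 0.0038 after risperidone in the PFCx. The Sgk2 differences against all saline ran from -0.08 to 0.21 and from -0.04 to 0.04. The NAc risperidone libraries held 5.86, 5.74, 6.83 and 5.67 FPKM of Sgk3 (limma adjusted p = 0.0842). They were mostly below the saline libraries, but against saline set I alone the difference was -0.20 (limma adjusted p = 0.756). The PFCx mianserin libraries, in which Sgk1 was highest, held 3.13, 4.01, 4.22 and 4.22 FPKM of Sgk3 (limma adjusted p = 0.0969). Against saline set II, all 4 were lower and the difference of -0.42 passed the test (limma adjusted p = 0.0211).

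**Figure D4:**
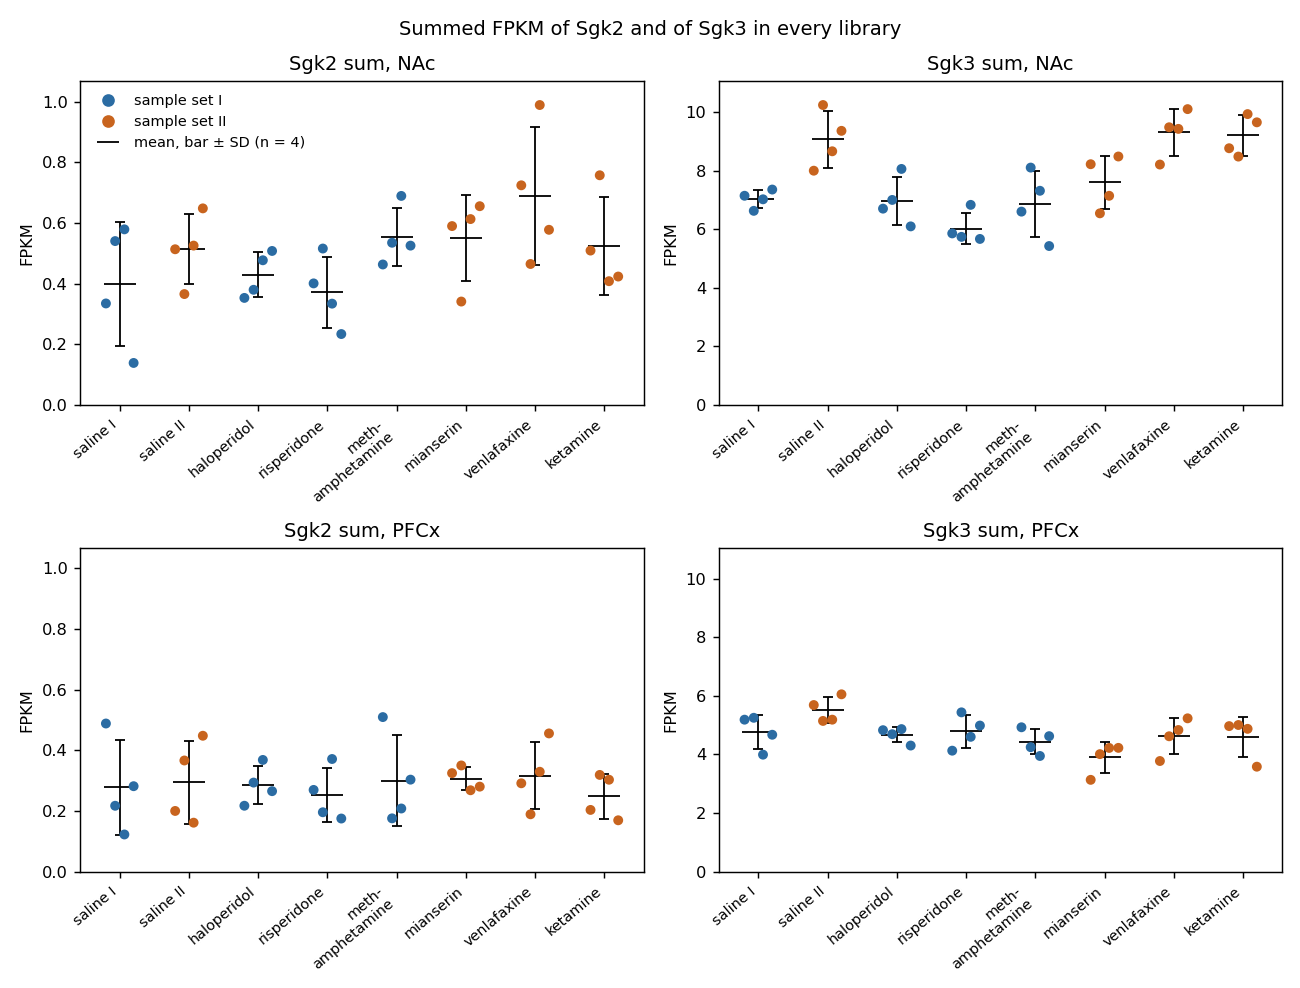
Summed FPKM of Sgk2 and Sgk3 (columns) in each library of the NAc and the PFCx (rows), by treatment. Points are libraries coloured by sample set, and horizontal marks with bars are the mean and SD of 4 libraries. In the NAc, saline set II lies above saline set I for Sgk3, and drug groups lie near the saline set of their own colour.

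Of 15 Sgk2 and Sgk3 transcripts tested after 6 drugs in 2 tissues, 1 passed in 1 comparison. The share of all transcripts called in the NAc was 0.504% for mianserin, 0.16% for risperidone, 0.188% for haloperidol, 0.2% for ketamine, 0.051% for methamphetamine and 0.0579% for venlafaxine. In the PFCx it was 0.351%, 0.158%, 0.0232%, 0.00347%, 0.108% and 0.00116% in the same order. Sgk3-206, a single-exon intron-retaining transcript, fell in the PFCx after mianserin to 0.250, 0.369, 0.291 and 0.495 FPKM. In the 8 saline libraries its lowest, median and highest values were 0.559, 0.675 and 0.753 FPKM, so the groups did not overlap, as for 0.688% of all transcripts (-0.30, SE 0.065, limma adjusted p = 0.033). The call was lost when any 1 of 8 of these 12 libraries was left out, against either saline set alone, and with coverage in place of FPKM. The difference of each drug effect between the tissues was also tested for Sgk2 and Sgk3 and passed in limma for 0 of the 6 drugs at the gene level, with 0 for Sgk2 and 3 for Sgk3 at an unadjusted p under 0.05. Over all genes that test called 0.0405% for haloperidol, 0.119% for mianserin, 0.0513% for venlafaxine, 0.313% for ketamine and 0 genes for risperidone and methamphetamine.

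The 2 saline sets differed for some members, which bears on every drug value above. Sgk1-201 in the PFCx was 1.69 ± 1.1 FPKM in set I and 4.16 ± 1.2 FPKM in set II, without overlap, as for 5.4% of all transcripts (exact permutation p = 0.0286, adjusted over 12 tests 0.171; log2 difference 1.01, limma adjusted p = 0.157). In the NAc it was 1.26 ± 0.43 and 2.29 ± 0.57 FPKM, with overlap (exact permutation p = 0.0571, adjusted 0.229). Sgk1-204 overlapped between the sets in both tissues. Sgk3 in the NAc was 7.04 ± 0.31 FPKM in set I and 9.06 ± 0.96 FPKM in set II, and the difference of 0.32 passed (limma adjusted p = 0.0256), where 17.2% of all genes were called. With coverage per gigabase in place of FPKM, that difference was 0.05 and did not pass (limma adjusted p = 0.737). Sgk1-207 in the PFCx was lower in set II (-0.66, limma adjusted p = 0.0254), where 2.56% of transcripts were called, and Sgk3-201 in the NAc was higher (0.71, limma adjusted p = 0.0329), where 1.15% were called. All 7 oligodendrocyte markers were lower in NAc set II than in set I (where 4.37% of all genes were called lower), and 4 of 5 blood markers were lower in PFCx set II (where 6.57% of all genes were called, 3% higher and 3.57% lower), with summed levels of 38.2 to 58.3 against 88.9 to 127.0 FPKM. Their part in the member differences was not tested.

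Of the genes that act around the SGK kinases, 3 of 528 tests against saline passed, or 0.568%, where 0.75% of the tests over all genes did. Of 16 genes that activate or restrain the kinases (PDK1, the mTOR complex 2 subunits, phosphoinositide 3-kinase, the corticoid receptors), 0 passed in any of the 12 drug comparisons by limma, and 26 of the 192 tests had an unadjusted p under 0.05. Among 16 substrates and turnover genes, Ndrg1, whose product the SGK kinases phosphorylate, was higher in the NAc after haloperidol (0.40, limma adjusted p = 0.00308) and after ketamine (0.27, limma adjusted p = 0.0446), and no other passed. These are RNA levels, and phosphorylation of the product was not measured. The ketamine call was lost against saline set II (0.28, limma adjusted p = 0.133) and with coverage (0.20, limma adjusted p = 0.275). Among 12 related AGC kinases, Akt1, which shares substrates with SGK1, was lower in the NAc after venlafaxine (-0.28, limma adjusted p = 0.0427), a call lost against saline set II (-0.15, limma adjusted p = 0.812), with coverage and with 75th percentile rescaling. The NAc ketamine libraries also held more oligodendrocyte RNA than saline set II (summed markers 736.8 to 811.7 against 583.4 to 645.7 FPKM). Of the 7 markers, 4 were called higher than saline set II and 2 higher than all saline. Of 5 astrocyte markers, 2 were called higher than saline set II. Their part in the Ndrg1 value and in the Sgk1 values after ketamine was not tested.

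Between the tissues 27 of these 44 genes passed after saline, or 61.4%, where 39.9% of all genes did. Of the activation list 7 were higher and 7 lower in the NAc. Deptor, an mTOR inhibitor, was lower (-0.89, limma adjusted p = 3.02e-07), whereas the mineralocorticoid receptor gene Nr3c2 was higher (0.65, limma adjusted p = 5.35e-07). Of the substrates 7 were higher and 3 lower, led by the transcription factor gene Foxo1 (1.59, limma adjusted p = 3.7e-12) and by Nedd4l, the ubiquitin ligase that SGK1 phosphorylates (0.37, limma adjusted p = 8.63e-08). Of the AGC kinases 0 were higher and 3 lower, or 25% called, a smaller share than over all genes. Among them were the S6 kinase gene Rps6kb1 (-0.39) and Pkn2 (-0.19), and with coverage neither passed (-0.28 and 0.04, the latter with the opposite sign). With coverage 2 of the 12 AGC kinases were called higher and 1 lower, so the direction of the calls depended on the measure.

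Among 16 other genes known to respond to glucocorticoids, several were higher after 5 of the drugs, and none after venlafaxine. In the NAc 11 of the 16 passed as higher after risperidone, 10 after haloperidol, 7 after mianserin, 5 after methamphetamine, 4 after ketamine and 0 after venlafaxine, where Mt1, a metallothionein gene, was lower (-0.74, limma adjusted p = 0.0453), as were 0.729% of all genes. That call was lost against saline set II (-0.43, limma adjusted p = 0.825) and with coverage (-0.75, limma adjusted p = 0.0541). After venlafaxine 1 of the 16 was higher in each tissue at an unadjusted p under 0.05. In the PFCx 8 passed as higher after risperidone, 8 after mianserin, 5 after haloperidol, 3 after methamphetamine, 1 after ketamine and 0 after venlafaxine. The shares of all genes called higher were 0.446%, 0.527%, 1.43%, 0.162%, 1.43% and 1.1% in the NAc and, for the PFCx, 0.284%, 0.343%, 0.124%, 0.27%, 0.0135% and 0.0027%, in the orders given. With the saline set of the drug's own sample set the NAc counts were 8, 6, 5, 0, 4 and 0, and those of the PFCx 5, 8, 0, 2, 1 and 0. The list median in the NAc was 0.45 after risperidone against -0.05 over all genes, and -0.09 after venlafaxine against 0.04. Fkbp5, Cdkn1a and Nfkbia entered the list after being named in work on these libraries, so the counts are not independent evidence of direction.

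The genes with the lowest adjusted p in this list differed between comparisons, but several were shared by drugs, and no drug was tested against another. Ddit4, a stress-induced inhibitor of mTOR complex 1, was higher after risperidone in the NAc (1.13, SE 0.12, limma adjusted p = 2.02e-06) and after mianserin in the PFCx (1.14, limma adjusted p = 1.42e-06). It also led after risperidone in the PFCx (1.03, limma adjusted p = 1.62e-05). Nfkbia, the inhibitor of NF-kappa-B, was higher in the NAc after mianserin (0.83, limma adjusted p = 1.25e-05) and after risperidone (0.94, limma adjusted p = 2.02e-06). Dusp1, a phosphatase of MAP kinases, led after haloperidol in the NAc (1.01, limma adjusted p = 5.84e-07). In the PFCx it led after methamphetamine (0.98, limma adjusted p = 1.99e-05) and after haloperidol (0.63, limma adjusted p = 0.0237). Tsc22d3, which encodes the glucocorticoid-induced leucine zipper, was the single list gene called after ketamine in the PFCx (0.70, limma adjusted p = 0.000326). In the NAc, the FPKM of Sgk1-201 was highest after mianserin, where 7 of the 16 were called against all saline. It was lower after haloperidol, where 10 were. Against the own saline sets the counts after mianserin and haloperidol were 5 and 6 in the NAc. In the PFCx, where the FPKM of Sgk1-201 was also highest after mianserin, they were 8 and 0. These orders were not tested.

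**Figure D5:**
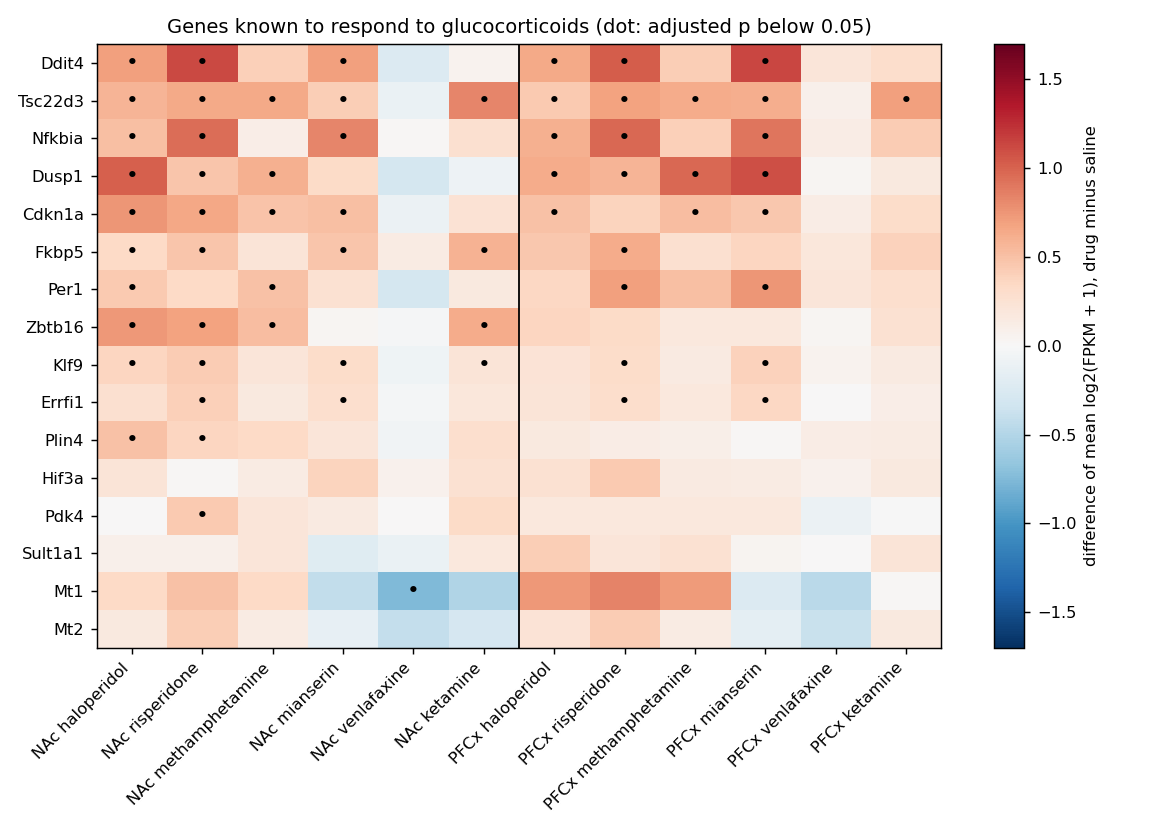
Difference of mean log2(FPKM + 1) between each drug and saline (colour) for 16 genes known to respond to glucocorticoids (rows) in the NAc and the PFCx (columns left and right of the line). Dots mark limma adjusted p below 0.05. The risperidone columns hold 11 dots for the NAc and 8 for the PFCx, and no gene is called higher in the venlafaxine columns.

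The genes whose pattern over the 64 libraries was most like that of the Sgk1 sum came partly from the same list. Among 15523 genes with a mean of at least 1 FPKM, after centring each tissue and sample set, the highest correlations were those of Klf9 (0.834), Nfkbia (0.831), Ddit4 (0.814), Pim3 (0.790), Gm37728 (0.781), Txnip (0.780), Arrdc2 (0.769) and Errfi1 (0.767). Klf9 encodes a Krüppel-like transcription factor, Pim3 a serine/threonine kinase, Txnip an inhibitor of thioredoxin, Arrdc2 an arrestin-domain protein and Errfi1 an inhibitor of the EGF receptor. The middle 90% of all genes lay between -0.276 and 0.314. The lowest were Hes5, a Notch target gene (-0.718), and Kcnj2, which encodes an inwardly rectifying potassium channel (-0.687). The 8 genes most like the Sgk1 sum correlated with Sgk1-201 at 0.727 to 0.807 and with Sgk1-204 at -0.0096 to 0.0751. Of these 8 genes, 5 were among the first 8 in the NAc alone and 5 in the PFCx alone. With centring on the tissue only, 4 of the 8 stayed among the first 8, and Pim3 was at rank 43. The points share libraries and treatments, so the correlations are a description.

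Klf9 shows how far levels and ratios can part. In the NAc it was at 21.9 ± 1.4 FPKM after saline, 29.9 ± 1.6 after risperidone and 27.2 ± 1.6 after mianserin. Nfkbia went from 2.32 ± 0.43 FPKM after saline to 5.38 ± 0.73 and 4.88 ± 0.60. The means of both were thus higher after risperidone than after mianserin, but the libraries of these drugs overlapped, so the order was not resolved. Klf9 ran from 27.63 to 31.28 FPKM after risperidone and from 25.7 to 29.46 after mianserin. Nfkbia ran from 4.85 to 6.407 and from 4.298 to 5.701 FPKM. For Sgk1-201 the FPKM was highest after mianserin.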

How the data were processed

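Ribosome-depleted total RNA was sequenced as single-end Ion Proton reads, and the authors aligned the reads to mm10 with TopHat2 2.0.1 (and unaligned reads with a second aligner) and estimated transcript abundance with Cufflinks 2.2.1 against Ensembl transcripts. The deposited files give an FPKM value, its confidence bounds, the read coverage and the length of each transcript for 64 libraries, and no counts, so depth was estimated as the sum of the deposited coverage times length. Coverage and FPKM as deposited by the authors differ in 1 respect that matters here: for long transcripts of low FPKM, coverage per FPKM had a median of 0.982 of the library's own level in the NAc libraries of sample set I, 0.706 in those of set II, and 0.645 and 0.659 in the PFCx. For the members this ratio was 0.923 to 0.997 for Sgk1, 0.590 to 0.995 for Sgk3 and 0.233 to 0.974 for Sgk2. Coverage per aligned gigabase was therefore used as an alternative.

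Members were matched to GENCODE vM21, where all 28 had the same coordinates. Gene values are sums of transcript FPKM. Transcripts and genes with a mean of at least 0.1 FPKM in either tissue were kept, 86331 transcripts and 37034 genes, among them 26 of the 28 members. Tests were limma 3.58.1 moderated tests in R 4.3.3 on log2(FPKM + 1), with Benjamini-Hochberg adjustment over all features and a threshold of 0.05. Fold changes on this scale understate those of low transcripts. Drugs were compared with saline in 1 fit of the 32 libraries of a tissue, tissues in the 16 saline libraries with the saline set as covariate, and shares with two-sided exact permutation tests in scipy 1.17.1. On simulated data, 199 of 200 genes changed by 1.5 on the log2 scale were recovered, with 10 other calls among 29273 genes, for NAc mianserin against saline. No member had a failed abundance status, and no pair of libraries shared more than 0.1313% of its values.

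The members and the gene lists were chosen with earlier results of these data known. Genes named were all member transcripts, the 8 most and 2 least like Sgk1, and at most 4 called members of each list per comparison. Some list members are not reported here. The summed levels of 8 marker lists were computed. Of the lists not described above, astrocyte markers were lower in the NAc than in the PFCx for 3 of 5, microglia markers higher for 2 of 5, endothelial markers lower for 2 of 6, choroid plexus markers higher for 2 and lower for 3 of 6, and blood markers differed for 0 of 5. Replicate numbers were not counted as pairs. Alternatives were another pseudocount, other filters, rescaling, single saline sets, a replicate block and leaving out each library. Protein sequences of the members were not used here.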

Additional observations from a re-analysis of the deposited data

Results flagged for a closer look

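In 6 of 80 groups of 4 libraries, 1 library stood apart from the other 3 of its group, where chance alone gives about 1 in 20 groups. The Sgk1 sum of NAc haloperidol replicate 4 was 24.55 FPKM against 36.62 to 37.62 in the other 3, still above every saline library. Sgk1-201 in NAc venlafaxine replicate 4 was 5.271 FPKM against 3.23 to 3.454. Sgk1-201 in PFCx saline set II replicate 4 was 5.981 FPKM against 3.392 to 3.715, and this library is the highest saline value that the PFCx drug groups were set against. Sgk1-204 in PFCx haloperidol replicate 4 was 1.187 FPKM against 2.048 to 2.086. The Sgk3 sum in NAc risperidone replicate 3 was 6.83 FPKM against 5.666 to 5.855, and in PFCx ketamine replicate 4 it was 3.581 FPKM against 4.874 to 5.005.

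The Sgk3 sum after ketamine lay above the saline mean in all 4 NAc libraries and below it in all 4 PFCx libraries. The difference between the tissues was 0.3177 on the log2 scale and did not pass the test (limma adjusted p = 0.193). Against saline set II, its own set, the NAc difference after ketamine was 0.02 and that of the PFCx -0.22.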

How the results depend on the processing

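Of 95 member differences, 26 changed sign under at least 1 alternative. None of these had passed a test (Sgk1 after the drugs was not tested), and all were at most 0.386 in size on the log2 scale. The 12 called differences and the 2 shares kept their direction under every alternative run. Calls of Sgk3 after the drugs depended on the saline set. With saline set II alone its sum passed the test in the NAc after haloperidol (-0.3387), risperidone (-0.5176) and methamphetamine (-0.3637) and in the PFCx after mianserin (-0.4167, the same with the own sample set). With saline set I alone it passed in the NAc after venlafaxine (0.3564) and ketamine (0.3433), as did Sgk2 after venlafaxine (0.2753). The log2 difference of Sgk1-201 in the PFCx after mianserin was 2.315 against set I and 1.308 against set II, its own set. A pseudocount of 0.1 moved that of Sgk1-201 in the NAc to 2.433 after haloperidol, 2.758 after risperidone, 3.360 after mianserin and 2.528 after ketamine. Within saline set I the tissue differences of the Sgk1-204 and Sgk1-201 shares were 17.06 and -17.87 percentage points and did not pass. With coverage per gigabase, chosen after seeing the data, the Sgk2 tissue difference passed (0.2890), and that of Sgk3 between the NAc saline sets did not (0.0466). A filter of at least 1 FPKM on the mean removed Sgk2.

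Leaving out single libraries gave 0.2660 to 0.3732 for Sgk3 between the NAc saline sets, lost without NAc saline II replicate 4 or any of the 4 of set I. It gave -0.5400 to -0.3182 for Sgk1-201 between the tissues, which passed without PFCx saline I replicate 4 (limma adjusted p = 0.024). For the Sgk2 sum between the tissues it gave 0.1502 to 0.2250, which passed without NAc saline I replicate 4 or PFCx saline I replicate 1. For Sgk3 it gave -0.4106 to -0.3107 after risperidone in the NAc, which passed without saline I replicate 2, and -0.3697 to -0.2483 after mianserin in the PFCx, which passed without saline I replicate 3. The causes were not tested.

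With a replicate block, Sgk3 between the NAc saline sets kept its value of 0.3209 and did not pass (limma adjusted p = 0.09005), and the calls of Sgk2-201, Sgk3-206 and Sgk3-212 between the tissues, of Sgk3-201 between the NAc sets and of Sgk1-207 between the PFCx sets were lost. Libraries with the same number correlated over 0.1 in 40 of 48 pairs within the NAc sets, 36 of 48 within the PFCx sets and 8 of 32 between the tissues, with a minimum of -0.388. Since not every pair was over 0.1 and no label ties a number to an animal or day, the numbers were not taken as pairs. As a hint from the data the other way, 52 of 64 libraries were closest to one with their own number.

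The number of genes called depended on the saline set. In the NAc it was 267 after haloperidol (77 to 10382 over the alternatives), 270 after risperidone (69 to 9840), 681 after mianserin (97 to 10981), 676 after venlafaxine (1 to 11654), 72 after methamphetamine (30 to 8403) and 731 after ketamine (218 to 10358). The highest counts came against the saline set of the other sample set. In the PFCx it was 60 (8 to 4412), 189 (46 to 4584), 247 (134 to 1271), 2 (0 to 1228), 130 (44 to 3014) and 6 (2 to 743) in the same order. It was 14786 between the tissues (7709 to 16469), 6386 between the NAc saline sets (1402 to 9751) and 2434 between the PFCx sets (1398 to 2635).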
